A study of Homo sapiens with 32 samples.

Results

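N6-methyladenosine (m6A) sites that were listed in unstressed wild-type HEK293T cells and in no other condition of the study numbered 1076. They came from 6267 distinct nuclear sites in 4 lists, one for each combination of eIF3d genotype and treatment. HEK293T is an established human embryonic kidney cell line. The genotypes were wild-type eIF3d (WT) and phosphomimetic eIF3d with the substitutions S528D and S529D (DD). Cells received the vehicle DMSO or 600 nM thapsigargin (Tg), a drug that empties the calcium store of the endoplasmic reticulum (ER), for 16 h, so all 4 conditions share the cell line and the medium. Whether the lines are clones, and what became of the cells' own eIF3d, is not given in the sources used here. Each list rests on immunoprecipitated and input libraries of 2 replicates, but it gives positions and strand alone, without coverage, score or replicate. Absence from a list is therefore absence of a call, and the depth behind a site is unknown.

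The members were selected on the 4 lists themselves: chromosome, start, end and strand had to occur among the WT DMSO sites and in none of the other lists, with the mitochondrial chromosome and duplicate lines left out. Their absence elsewhere is thus the rule and not a finding. WT DMSO held 2401 nuclear sites, WT Tg 1082, DD DMSO 1283 and DD Tg 4356. The members were 44.8% of the WT DMSO list (95% Wilson interval 42.8 to 46.8). The same rule left 289 of the WT Tg sites (26.7%), 387 of the DD DMSO sites (30.2%) and 2831 of the DD Tg sites (65.0%). The share of private sites was higher in the longer lists. Of the 2401 WT DMSO sites, 24.5% also stood in WT Tg, 28.3% in DD DMSO and 49.4% in DD Tg, the longest list, while 384 stood in all lists.

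**Figure D1:**
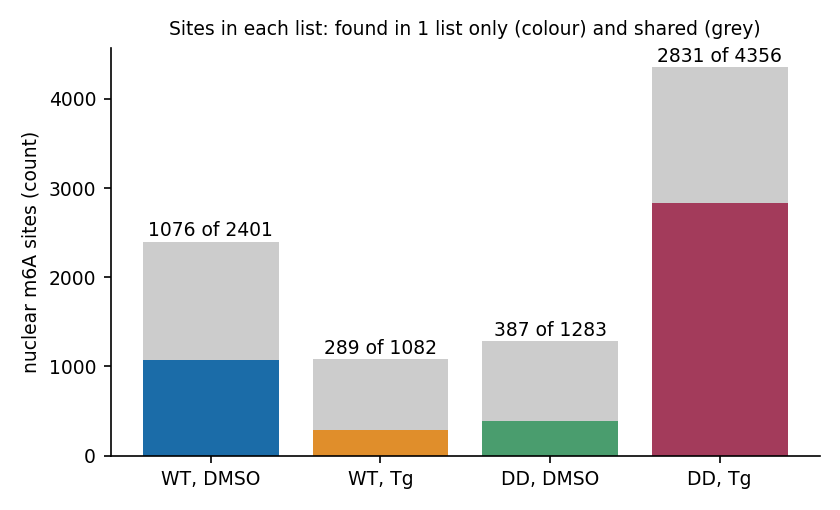
Bars give the number of nuclear m6A sites in each of the 4 lists (y axis, count). The coloured part is found in that list only, and the WT DMSO bar holds 1076 such sites of 2401.

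m6A is a methyl mark on adenosines inside messenger and long noncoding RNAs. A nuclear writer complex built around METTL3 and METTL14, with WTAP as its adaptor, places it mostly in the sequence context called DRACH. Antibody crosslinking methods such as m6A-eCLIP also pick up adenosine methylated at the N6 position next to the cap (m6Am), where the first transcribed base is an adenosine. Among the subunits of eIF3, a factor that loads ribosomes onto mRNA, eIF3d has a cap-binding domain of its own. It serves translation of mRNAs such as JUN when the usual cap-binding route is restrained, as in the integrated stress response (ISR).

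Sequence could be read for the members that lie in RefSeq gene start windows (GRCh38.p14), which run from 250 bases before to 50 bases after each gene start. These held 58 of the 1076 members (5.39%), against 198 of 2831 private DD Tg sites (6.99%), and 51 of the 58 were 1 base wide. All 51 of these bases were A on the RNA strand. The motif DRACH is A, G or T, then A or G, then A, then C, then A, C or T, searched on the RNA strand only with the site as its central A. The 8 members that matched it are shown first, because they carry the motif of the internal mark. Each line is the RNA strand as DNA letters, 5′ to 3′, and the capital marks the called base.
CLIC4, chr1:24745445, plus strand: tcgacgccggAcagtccagcg
TMEM59, chr1:54053203, minus strand: agctgctgtgAcagaggggaa
NANS, chr9:98056737, plus strand: tgctcacagaAcagagtagag
ATP5MG, chr11:118401620, plus strand: ccggcgggtgAcattcagccg
FAM98B, chr15:38454141, plus strand: agagcgccgaAcagctctggg
NDUFA2, chr5:140647615, minus strand: tggcctgaagAcctggaattg
BBS7, chr4:121870447, minus strand: gcagcccaggAcctaggcgcg
HMGN2, chr1:26472483, plus strand: cgctataaaaActttat

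These 8 were 15.7% of the 51 window members (interval 8.17 to 28.0). Among private DD Tg sites in such windows, 5 of 192 matched (2.60%, interval 1.12 to 5.95). Among all sites of the 4 lists, members included, 15 of 336 did (4.46%). For comparison, 7.25% of all A bases in all start windows, and 97.2% of the windows, hold the motif. Within 5 bases of the gene start lay 3 of the 8: CLIC4 2 bases before it, TMEM59 1 base after it and NANS 5 bases after it. Of the 8, 7 lay more than 1000 bases from any site of another list on their strand. The exception was HMGN2, whose product is a nucleosome-binding protein, with a neighbour 5 bases away.

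A second context recurred among the window members and was picked out after its sequences were seen. The letters CATTT, on the RNA strand with the called base as their A, surrounded 7 of the 51 (13.7%, interval 6.81 to 25.7). The same was true of 23 of 336 sites of all lists in start windows (6.85%, interval 4.604 to 10.1), which overlaps the members' interval. It was true of 6 of 192 private DD Tg sites (3.12%), 1 of 19 private DD DMSO sites, 1 of 5 private WT Tg sites and 0.564% of all A bases in start windows, and 27.0% of all windows hold the letters somewhere. No DRACH match can overlap this context at the same A. The 7 are shown with the same capital.
DBT, chr1:100249834, minus strand: cactgttgtcAtttccggggt
IST1, chr16:71895531, plus strand: gggagtcgccAttttggatgg
ATF4, chr22:39520563, plus strand: cacggcagccAtttctacttt
S100P, chr4:6693880, plus strand: ccagtgggacAttttctcggc
PARK7, chr1:7961717, plus strand: gcgtgcgttcAttttcagcct
SNRPF, chr12:95858965, plus strand: tttggcggccAtttctcttga
TXN, chr9:110256481, minus strand: ctttggatccAtttccatcgg

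Positions are counted from the annotated gene start nearest to the site. IST1 and ATF4 have another start, from which the called base lies 38 and 4 bases in. Letters before a gene start are genomic sequence outside that transcript. By this rule DBT and IST1 have the called base as the first base of a RefSeq transcript. In ATF4, the central transcription factor of the ISR, it was 1 base further in, and in S100P, a calcium-binding protein of the S100 family, 2 bases. In all, 11 of the 58 window members sat exactly on the gene start and 26 within 5 bases of it. Another 29 lay from 6 to 49 bases downstream, and 3 more than 5 bases upstream. Of the 11 on the gene start, 9 had no site of another list within 1000 bases. Those 11 include XIST, the long noncoding RNA of X inactivation, LONP1, a mitochondrial protease, and NUP58, a nuclear pore protein. A cytosine preceded the called A in 23 of 51 members (45.1%, interval 32.3 to 58.6), against 105 of 192 private DD Tg sites (54.7%) and 29.9% of all A bases in start windows. The members' share overlapped that of the private DD Tg sites within counting error.

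Many members had a near neighbour in another list. On the same strand, 54 members (5.02%) overlapped a site of another list with other borders. Of them, 26 were wider and 28 narrower than such a site and 1 had the same width but was shifted, a member with several overlaps being counted under each. A further 72 (6.69%) lay 1 to 5 bases from one. Within 50 bases the count was 347 (32.2%, interval 29.5 to 35.1), and within 1000 bases 573 (53.3%). The other 503 (46.7%) were more than 1000 bases from any site of another list on their strand. The neighbours within 50 bases were mostly sites of the DD Tg list, 319 members having one there, against 150 for DD DMSO and 110 for WT Tg. The private sites of the other lists had such a neighbour in 23.5% (WT Tg), 40.1% (DD DMSO) and 21.5% (DD Tg). The lists differ in length, so the chance of a neighbour differs between them and no test was made. Of the members, 82 (7.62%) were over 1 base wide, up to 4 bases. Since the rule asks for identical borders, a wider site is left without a match more easily. The private sites of DD DMSO and DD Tg were 1 base wide in 93.8% and 93.0% of cases and the members in 92.4%. For private WT Tg sites the share was 97.6%, and for sites in all lists 99.2%. Of the other WT DMSO sites, 1.96% were over 1 base wide.

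**Figure D2:**
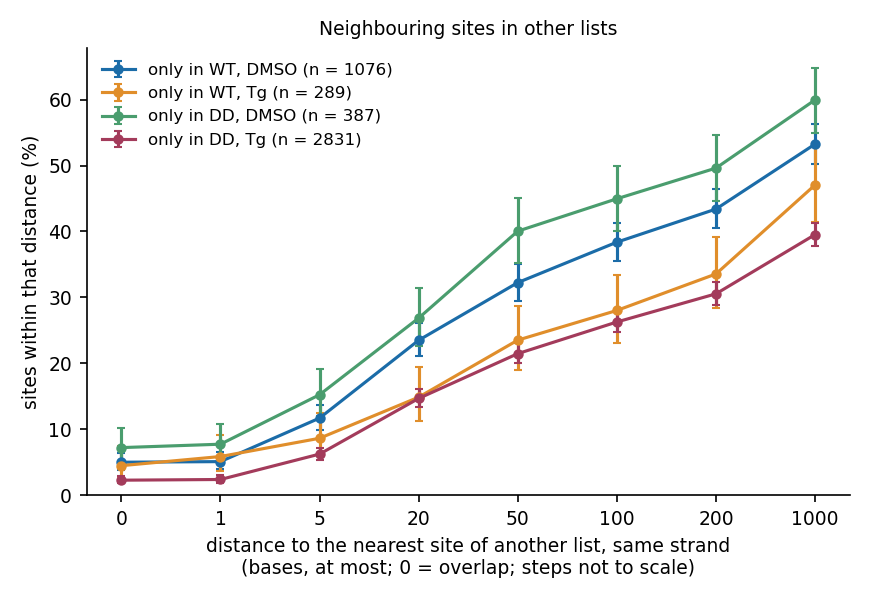
The y axis gives the percent of private sites of each list with a site of another list within the distance on the x axis (bases, same strand). Points are shares and bars 95% Wilson intervals; for the WT DMSO sites the share rises from 5.02% at overlap to 53.3% at 1000 bases.

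Gene spans of the RefSeq table held 1055 of the 1076 members (98.1%), whatever the strand. The strand of a gene was known only where it has a start window. On that basis 639 members (59.4%) lay in a gene on their own strand, 406 (37.7%) only in genes of unknown strand, 10 only in genes of the opposite strand and 21 in none. Exons, introns and UTRs are not annotated in that table. In protein-coding genes on the same strand, 16.0% of 626 site and gene pairs fell in the opening 10% of the span and 27.3% in the closing 10%. For private DD Tg sites the shares were 17.7% and 31.1%. Both ends were fuller than the middle in each set.

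**Figure D3:**
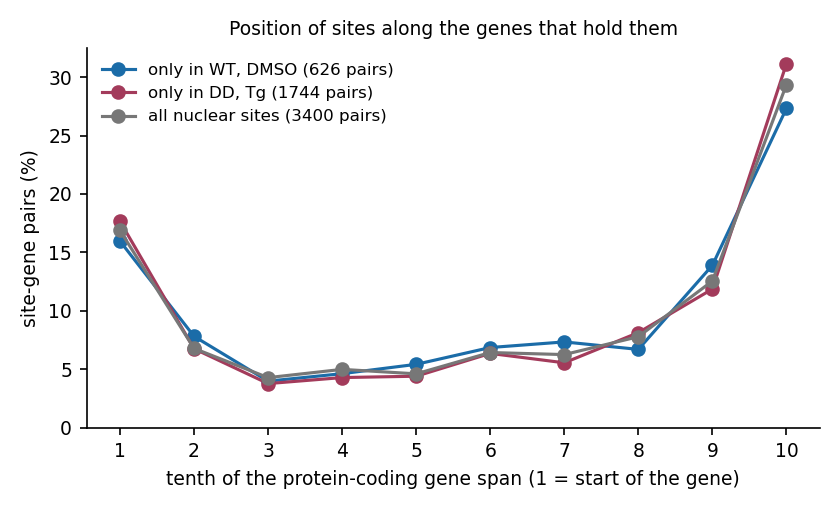
The y axis is the percent of site and gene pairs in each of 10 equal segments of a protein-coding gene span (x axis, from gene start to gene end). The curve of the private WT DMSO sites (626 pairs) is high in the opening segment (16.0%) and highest in the last (27.3%), as are the curves for private DD Tg sites and for all sites.

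The members were spread over 486 genes on their own strand, 465 of them protein-coding and 21 long noncoding. Of these hosts, 411 held 1 member and 75 held at least 2. No site of any other list was present in 255 hosts (52.5%). The remaining 231 (47.5%, interval 43.1 to 52.0) held one, in DD Tg for 212, DD DMSO for 89 and WT Tg for 87. Hosts of private DD Tg sites had a site of another list in 30.2% of cases, and hosts of private DD DMSO sites in 62.4%.

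The gene with the most members was TPT1, which encodes the translationally controlled tumour protein, with 9. RACK1, a scaffold protein of the small ribosomal subunit, and RPL36 had 8 each. RPL32, RPS19 and RPS6 had 7 each, RPL3, RPL35 and RPS4X had 6 each, and RPL13 had 5. The nuclear long noncoding RNA MALAT1 had 6 and AMBRA1, a regulator of autophagy, had 5. Counted together after their values were seen, 41 ribosomal protein genes, RACK1 included, held 130 members (12.1%, interval 10.3 to 14.2). The share was 9.69% among private WT Tg sites, 11.4% among private DD DMSO sites, 9.57% among private DD Tg sites and 3.39% among sites in all lists. The members' interval overlaps those of the other private sets. In these genes the sites of the lists interleave: RPL36 had 19 sites in WT DMSO, 7 in WT Tg, 14 in DD DMSO and 27 in DD Tg.

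Processed copies limit these assignments. Pseudogene spans held 357 members (33.2%), and 282 of these (26.2%) were in no protein-coding gene of the same or unknown strand. Ribosomal protein pseudogenes alone held 125 members (11.6%), with RPS8P8 and RPS18P5 at 6 each and RPL13P12 at 5. How reads that fit both a gene and its copy were placed is not given in the sources used here, so these positions are uncertain. The share in pseudogene spans was 30.4% among private WT Tg sites, 37.5% among private DD DMSO sites, 27.3% among private DD Tg sites and 36.4% among all sites. Sites shared by all lists had 68.5% (interval 63.7 to 72.9). Histone genes with the symbols of the clustered and linker genes (H1-, H2BC, H3C and H4C), another family of near-identical copies, held 17 members in 10 genes, led by H4C5 with 4 and the linker histone gene H1-4 with 3. The histone variant genes H2AX, with 2 members, and H2AZ1, with 1, were not counted among these. Zinc finger genes, with symbols of ZNF or ZFP and a number alone, held 20 members in 17 genes and none had more than 2. ZNF518B, outside that count, had 1.

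Among the m6A machinery, WTAP was the one writer gene with a member, and it had 1, at 96.6% of the way along its span. METTL3, METTL14, both erasers (FTO and ALKBH5) and all readers in the list had no member, although 2 readers and 1 writer had no known strand. EIF3D itself had 3 members, at chr22:36510932, chr22:36511575 and chr22:36511649 on the minus strand. They lie 77, 720 and 794 bases from the end of the 18312-base gene. EIF3D had 4 sites in WT DMSO, 1 in WT Tg and none in either DD list.

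ISR genes held 10 members in 6 of the 36 genes listed. PHGDH, the entry enzyme of serine synthesis, had 4, spread from 0.18% to 99.3% of its span, and all its WT DMSO sites were members. DDIT4, an inhibitor of mTORC1, had 2. ATF4, CEBPG, a partner of ATF4, and SLC7A5 and SLC3A2, the chains of an amino acid transporter, had 1 each. The ATF4 member overlaps a site of another list with other borders. JUN, the AP-1 subunit, had 4 members, 58.4% to 62.6% of the way along its 3257-base span on chr1, each within 80 bases of a site of another list. Of the 20 long noncoding RNAs listed, MALAT1 (6), XIST (3), TUG1 (1) and OIP5-AS1 (1) held members. MALAT1 had no site in WT Tg, 2 in DD DMSO and 3 in DD Tg. The other lists held few: the ER genes PDIA4 and CREB3L2 1 each, HSP90AB1 2, HSP90AA1 and HSPD1 1 each, and the cell cycle genes CDK4, TOP2A, CENPE, E2F2 and CDKN1B 1 each. The translation and decay genes EIF4G3, GCN1, DDX6 and UPF1, the chromatin genes ARID1B and HDAC2 and the ubiquitin genes CUL4B, USP22 and USP34 also had 1 each, as had FGFR2 and VIM.

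Levels of the host genes come from 8 RNA-Seq libraries, 2 per condition, as RPKM (reads scaled to gene length and to the library's total). Nothing in the labels says that the replicates are separate cultures, so p-values measure the spread between these libraries. Between the shallowest and the deepest library the depth differed 2.25-fold, WT DMSO replicate 2 being the shallowest. Of 8 markers of HEK293T cells 6 had a mean of at least 1 RPKM, while none of 8 markers of blood, liver, pancreas, muscle and glia did. Of the 486 hosts 472 were matched to the table, and 385 passed the filter, a mean over all libraries of 1 RPKM or more. The median of these 385 hosts was 11.3 and 10.1 RPKM in the WT DMSO libraries, above the medians of the 9627 genes that passed the same filter (3.42 and 2.50). With hosts on either strand, 562 genes, it was 9.77 and 7.73. Without the filter, the median of the 472 hosts was 7.11 and 4.54, and that of 858 genes on either strand 2.73 and 1.73. In the same libraries, also unfiltered, hosts of private WT Tg sites had medians of 8.845 and 4.382. The medians were 11.01 and 10.53 for private DD DMSO sites and 5.517 and 4.668 for private DD Tg sites. For sites in all lists they were 11.89 and 12.99. The members' hosts were thus not the most abundant of these sets, and the differences were not tested. Of the 385 hosts, 135 were in the top 10% of the tested genes by WT DMSO level. In bulk RNA, fewer cells with a transcript and less of it per cell cannot be told apart.

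Hosts that also had a site of another list were far more abundant than hosts with none. Without the filter, the former had medians of 22.9 and 20.02 RPKM in WT DMSO (224 genes) and the latter 3.44 and 1.88 (248 genes). With the filter the medians were 32.1 and 41.2 against 5.25 and 3.35. At the other end, 18 of the 472 hosts were at 0 RPKM in both WT DMSO libraries, among them DCAF8L2 and UPP2 with 2 members each. The highest hosts with at least 2 members were RPS12 (3642 ± 2106 RPKM, SD, n = 2), RPS16, RPS6, RPL13A and RPLP2. The lowest after those at 0 were KIF4B, ABTB2 and SLC9A7, all under 0.4 RPKM.

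No host changed its RNA level past the threshold in any comparison with WT DMSO, and the 3 comparisons share those 2 libraries. Limma on log2(RPKM + 1), with Benjamini-Hochberg adjustment over 9627 genes, called 0 genes and so 0% higher and 0% lower for WT Tg, DD DMSO and DD Tg alike. At an unadjusted p below 0.05 there were 24, 68 and 102 genes, of which 1 host in each case, S100P. The hosts' median log2 difference was 0.06 for WT Tg (all genes 0.12), 0.12 for DD DMSO (0.13) and 0.07 for DD Tg (0.16). With the replicate number as a block the count remained at 0 in each. Since no gene at all was called, the count does not show that host RNA was unchanged. Of 32 genes of the ER chaperone list tested, 31 lay above the all-gene median in WT Tg (list median 0.49), and none was called.

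S100P stood at 40.0 and 74.3 RPKM in the WT DMSO libraries. Its WT Tg values were 6.11 and 21.8, its DD DMSO values 1.63 and 3.77, and its DD Tg values 3.54 and 0.118. Both WT DMSO libraries were above all 6 others. The log2 differences were -2.13 ± 0.85 (SE) for WT Tg, -3.97 ± 0.85 for DD DMSO and -4.63 ± 0.85 for DD Tg, each with an adjusted p of 1 in limma. Reads of this transcript were thus fewer wherever its site was not listed, and their part in the site call was not tested. Such a separation was rare: 4 of the 385 hosts (1.04%) had both WT DMSO libraries above the other 6, against 0.665% of all genes tested, and 4 (1.04%) had them below, against 1.73%. The first 4 were S100P, H4C5, NDUFB11 and SNHG11, named after their values were seen.

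In the 3 hosts with most members no condition lay wholly above WT DMSO. RPL36 was at 813 and 2570 RPKM in WT DMSO, while its WT Tg values were 668 and 1715, its DD DMSO values 1021 and 887, and its DD Tg values 1345 and 459. RACK1 was at 945 and 1191 in WT DMSO. The WT Tg libraries gave 729 and 1213, the DD DMSO libraries 778 and 1214, and the DD Tg libraries 1008 and 334. DD Tg replicate 2 was the lowest of the 8 libraries for both genes. TPT1 was at 236 and 91.3 in WT DMSO and between 58.0 and 162 elsewhere. For these genes the replicates of a condition differed as much as the conditions did.

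EIF3D was at 68.3 and 69.6 RPKM in WT DMSO. Its WT Tg values were 44.2 and 91.2, its DD DMSO values 37.5 and 76.6, and its DD Tg values 64.3 and 29.2. Reads assigned to the gene were present in the DD libraries, and neither DD list had a site in it. These values do not tell RNA of the cells' own gene from RNA of introduced eIF3d. Any link between level and site calls was not tested. PHGDH ranged from 18.4 to 86.3 RPKM and MALAT1 from 10.5 to 93.0, and in both the WT DMSO values lay inside or overlapped the range of the other libraries. MALAT1 was lowest in WT DMSO replicate 2 and highest in DD Tg replicate 2. JUN was at 14.5 and 17.7 in WT DMSO. The WT Tg libraries gave 20.1 and 40.1, the DD DMSO libraries 12.3 and 13.9, and the DD Tg libraries 12.3 and 25.2. Both WT Tg values of JUN were above both WT DMSO values, but the log2 difference of 0.79 ± 0.69 was close to its SE.

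**Figure D4:**
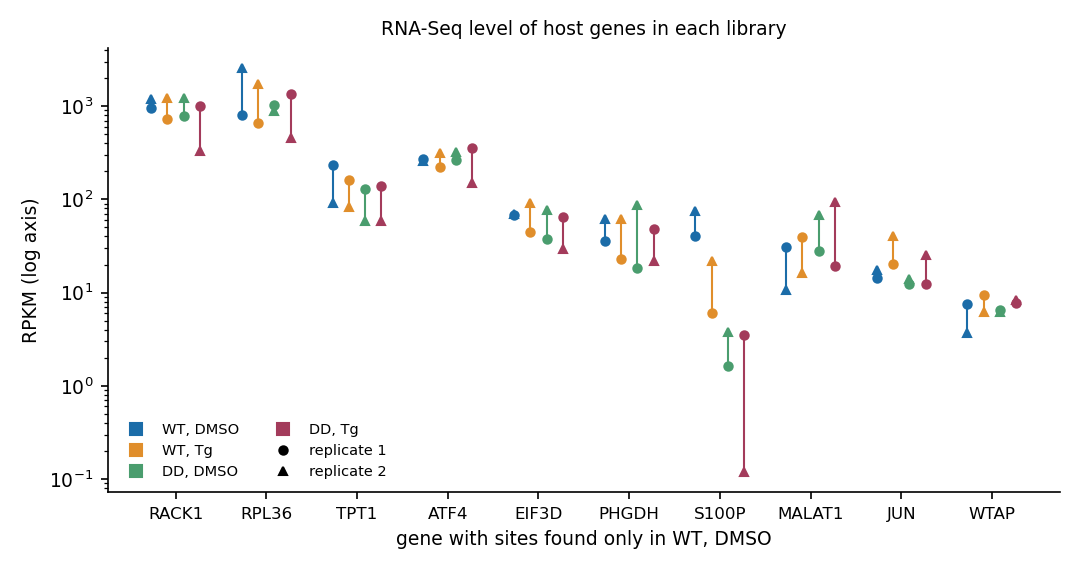
RNA-Seq level (RPKM, log axis) of 10 host genes in each of the 8 libraries; colours are conditions, circles and triangles replicates 1 and 2, and lines join the pair. In S100P the 2 WT DMSO values (40.0 and 74.3) lie above all others, which holds for none of the other 9 genes.

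Subunit-Seq measured which RNAs were held by the cap-binding domain of HA-tagged eIF3d. The factor was immunoprecipitated (IP) and the domain cut free with TEV protease, in DMSO and in Tg, with an input for each and 2 replicates deposited as separate tables. With a filter on the 4 inputs, a mean of 1 RPKM or more, 9803 genes were tested, 384 of them hosts. Low values in the IP were seen in 2 families of hosts, the ribosomal protein and the clustered and linker histone genes. The median of the other 335 hosts lay 0.20 (DMSO) and 0.09 (Tg) above that of all genes, in log2 units. JUN and HSP90AA1 were high as single genes among these 335, and no separate high group was shown. The fit kept the replicate number as a block. Limma's pooling of spread was complete in this assay. The SE of a gene thus came from all genes at its level and holds nothing of the gene's own replicate spread. The same holds for the p-values.

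In DMSO, 99 hosts (25.8%) were higher in the IP than in the input and 31 (8.07%) lower, against 21.4% and 1.75% of all genes tested (limma, adjusted p below 0.05). In Tg, 69 hosts (18.0%) were higher and 31 (8.07%) lower, against 14.6% and 1.62%. Hosts of the other site sets also exceeded the share of all genes that were lower. In DMSO 32.67% of hosts of private WT Tg sites were higher and 7.92% lower. The shares were 16.55% and 15.17% for private DD DMSO sites and 24.55% and 3.79% for private DD Tg sites. For sites in all lists they were 15.66% and 9.64%. RPKM in the IP were shifted as a whole. The median log2 difference of all genes was 0.96 in DMSO and 0.88 in Tg, and that of the members' hosts 0.85 and 0.77. In replicates 1 and 2 the all-gene median was 0.38 and 1.57 in DMSO, and 0.85 and 0.84 in Tg. Depth differed 3.30-fold over the 8 Subunit-Seq libraries. Genes above 0 RPKM ran from 14700, in DMSO input replicate 2, to 26239. With each library centred on its median, 5 hosts were higher and 38 lower in DMSO, and 5 and 34 in Tg, so the count of higher hosts rests on the scaling. Without the replicate block 2 and 1 hosts were called in all, and with every gene above 0 RPKM tested 0 were, in either treatment. These counts also rest on single libraries. In DMSO 0 hosts were called without input replicate 2 (79 had an unadjusted p below 0.05), 13 without IP replicate 2, and 54 to 77 without any 1 of the Tg libraries. In Tg 7 were called without input replicate 1, 13 without input replicate 2, 31 and 23 without IP replicates 1 and 2, and 152 without input DMSO replicate 2. No host differed in its IP against input difference between Tg and DMSO, where all genes gave 0% higher and 0.0612% lower; 1 host had an unadjusted p below 0.05.

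The lower hosts were mostly of 2 families. All 9 clustered and linker histone hosts tested were lower in the IP in both treatments, with a median log2 difference of -2.66 in DMSO and -3.79 in Tg. Centred on the library medians, 8 and 9 of them were called lower, and with no block 0 and 1. Without input replicate 2 the count in DMSO was 0, without IP replicate 1 it was 3 and without input replicate 1 it was 4. In Tg it was 3 without input replicate 1 and 5 without IP replicate 1. H1-4, at 297 and 66.5 RPKM in the DMSO inputs, was at 19.6 and 1.97 in the IPs (log2 difference -4.18 ± 0.66, adjusted p = 8.09e-08 in limma). H4C5 was at 41.4 and 15.2 in the DMSO inputs and 2.49 and 1.68 in the IPs, and at 228 and 12.3 in the Tg inputs and 1.75 and 0 in the IPs. Both genes were lower in every IP than in every input. The variant genes differed from this. H2AX was at 226 and 110 RPKM in the DMSO inputs and 239 and 320 in the IPs (0.81 ± 0.56), and H2AZ1 at 237 and 333 in the inputs and 249 and 272 in the IPs (-0.11 ± 0.55). Neither passed the threshold in DMSO or Tg, and the difference from the other histone genes was not tested. As background, mRNAs of clustered histone genes mostly lack a poly(A) tail, unlike those of the variants, and reads of such similar genes may be shared.

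Of the 40 ribosomal protein hosts tested, 17 were lower in DMSO and 18 in Tg, and none was higher. Their median log2 difference was -0.98 and -1.08. Centred, 13 and 14 were lower, and with no block 0 in each, although 18 and 21 had an unadjusted p below 0.05. In DMSO the count was 0 without input replicate 2, 2 without IP replicate 2, 5 without input replicate 1 and 5 and 9 without Tg input replicates 2 and 1. In Tg it was 0 and 1 without input replicates 1 and 2, 7 without IP replicate 1 and 10 without DMSO input replicate 1. RPL13 went from 2018 and 2439 RPKM in the DMSO inputs to 928 and 982 in the IPs (-1.22 ± 0.39, adjusted p = 0.0177 in limma). In Tg it went from 1764 and 2640 to 633 and 979 (-1.45 ± 0.39, adjusted p = 0.00467). Most of these mRNAs begin with a terminal oligopyrimidine tract.

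The remaining 335 hosts had 99 higher and 5 lower in DMSO, with a median of 1.16 against 0.96 for all genes. Those are 29.6% and 1.49% of the 335, beside 21.4% and 1.75% of all genes. Centred, 5 were higher and 17 lower, so the direction of the counts turned; with no block the counts were 2 and 0, and without input DMSO replicate 2 they were 0 and 0. JUN was at 49.5 and 3.87 RPKM in the DMSO inputs and 174 and 102 in the IPs (3.10 ± 0.64, adjusted p = 0.00016 in limma). In Tg it was at 40.4 and 15.4 in the inputs and 314 and 374 in the IPs (3.72 ± 0.64, adjusted p = 9.16e-07). Every IP value was above every input value. Over 13 alternatives the adjusted p of JUN ranged from 2.77e-05 to 0.326 in DMSO and from 5.36e-08 to 0.148 in Tg. The call was lost with no block or no filter in both, without input or IP replicate 2 in DMSO, and without IP replicate 2 in Tg. Centred, JUN kept its call in Tg (2.65, adjusted p = 0.0405) and lost it in DMSO (1.91, 0.076).

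HSP90AA1, a cytosolic chaperone, rose most in DMSO among the called hosts with a mean of at least 5 RPKM. It went from 88.3 and 21.6 RPKM to 456 and 541 (3.47 ± 0.58, adjusted p = 8e-07 in limma). Its call was lost when centred, with no filter or without input replicate 2. NUCKS1 (3.37), FMNL2 (3.34) and SERINC1 (3.10) were next to it. In Tg the highest after JUN by the same rule were ZNF503 (3.35), NR2F2 (3.25), FMNL2 (3.20) and SNRNP70 (2.98). For each gene from NUCKS1 to SNRNP70 the call was lost in 3 to 5 of its 10 to 13 refits. At the low end stood H4C4, H2BC21, H2BC4 and H2BC5, with log2 differences between -2.66 and -4.62. ATF4 was at 430 and 133 RPKM in the DMSO inputs and 1220 and 591 in the IPs (1.82 ± 0.46, adjusted p = 0.00284 in limma). Its call was lost with every gene above 0 RPKM tested, where no host was called. With no replicate block, only 2 hosts outside the ribosomal protein and histone families were called higher in DMSO. EIF3D, at 1.30 ± 0.59 in DMSO and 0.58 ± 0.59 in Tg, did not pass the threshold.

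Hosts without a site in any other list lay higher in the IP than hosts with one. Of the former, 62 of 191 were higher and 4 lower in DMSO, with a median of 1.25. Of the latter, 37 of 193 were higher and 27 lower, with a median of 0.36. In percent, 32.5 and 2.09 of the former and 19.2 and 14.0 of the latter were higher and lower, beside 21.4 and 1.75 of all genes, whose median was 0.96. The counts of higher genes rest on the scaling. The ribosomal protein and histone genes are largely in the latter group, and the difference was not tested.

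**Figure D5:**
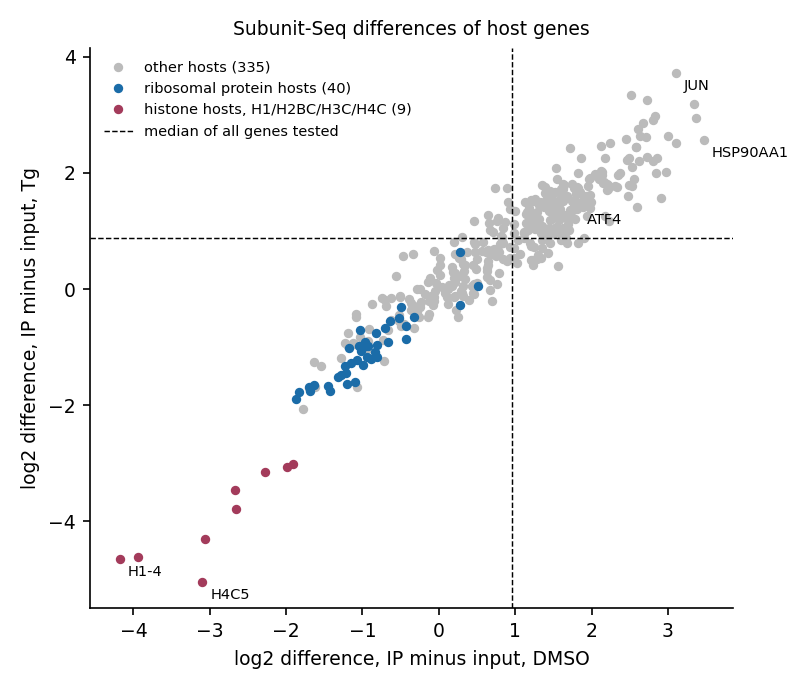
Each point is a host gene, with its log2 difference of IP minus input (log2 of RPKM + 1) in DMSO on the x axis and in Tg on the y axis; dashed lines are the medians of all genes tested (0.96 and 0.88). The 9 clustered and linker histone hosts lie lowest, the 40 ribosomal protein hosts lie below both medians, H2AX and H2AZ1 are among the other 335 hosts, and JUN and HSP90AA1 are at the upper right.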

How the data were processed

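The m6A-eCLIP site lists deposited by the authors give 0-based start and end positions on GRCh38 (per the submitters' processing notes). The end position was taken as the site, since it is an A in all 51 members of 1 base with sequence. Cutadapt, STAR and BWA appear in those notes with no role given. A site caller is not given in the sources used here. RNA-Seq (8 libraries) and Subunit-Seq (8 libraries) values are RPKM made by the authors, per the file headers and the labels. They were analysed as log2(RPKM + 1) with limma 3.58.1 in R 4.3.3 (eBayes with trend, two-sided, all 4 groups in 1 fit). The code recovered known changes in simulated data, whose noise was smaller than the SEs printed here. That run checks the code only and does not show which changes could be found at the spread of these libraries. Gene spans and start windows are RefSeq's, GRCh38.p14. Shares of sites carry 95% Wilson intervals, which cover counting error only.

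In RNA-Seq, same-numbered replicates of WT DMSO, WT Tg and DD DMSO deviated together (correlation of deviations 0.743 to 0.864). With DD Tg the correlations were 0.134 to 0.299. The numbers thus pair the samples of the former conditions, and those of DD Tg at most weakly. The fit without the block is the one reported, so its SEs and p-values leave this pairing out. With the block every count stayed at 0. In Subunit-Seq the correlations were 0.00194 to 0.51, and the replicate block was kept because each replicate was deposited as its own table.

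The members and gene lists were chosen with earlier results of these data known. Named genes are the 12 with most members, listed genes with a member, genes whose sequence is printed, and the 5 highest and 5 lowest called hosts per comparison with a mean of at least 5 RPKM. For hosts with at least 2 members, the 5 highest and 5 lowest are named too.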

Additional observations from a re-analysis of the deposited data

How the results depend on the processing

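The RNA-Seq count of called hosts was 0 under every alternative run, the replicate block and the removal of each library included (range 0 to 0 in each of the 3 comparisons), and so was the count for the Subunit-Seq difference between treatments (0 to 0). For IP against input the counts moved: the 130 called hosts in DMSO became 0 with all genes above 0 RPKM tested, 71 with a mean of at least 5 RPKM, 2 with no replicate block, 43 with centred libraries, and 0 to 189 when 1 library was left out. The 100 in Tg became 45 with a pseudocount of 0.1, 0, 56, 1 and 39 under the same settings in that order, and 7 to 152 with 1 library left out; the cause was not tested. Of 252 refits of the named genes 184 kept the call, 68 lost it and none changed direction. The member count fell to 663 when a neighbour within 100 bases counted as shared, 950 within 5, 823 within 20 and 729 within 50. Members near another list's site were 23.5%, 43.4% and 53.3% at 20, 200 and 1000 bases, as the wider distances include the narrower. On either strand 98.1% were in a gene span. With the start coordinate as a 1-based position 0% matched DRACH, and 8 of 51 bases were A. The host level, 5.83 RPKM as the mean of the 2 WT DMSO medians, was 13.9 weighted by members and 2.23 on either strand. The site lists carry no depth, so a site absent from a list may lie under its detection limit.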
